A study of Mus musculus with 13 samples.

Results

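Cadherins are the calcium-dependent adhesion proteins through which neurons recognise each other, and 54 of the 23427 genes listed in the single-cell count tables of the mouse claustrum belonged to this group. They were taken as every gene whose symbol is Cdh followed only by digits, or starts with Pcdh. They comprised 4 type I and 12 type II classic cadherins and 3 atypical cadherins (Cdh13, Cdh17 and Cdh23). There were also 4 delta-1 and 6 delta-2 protocadherins, with Pcdh20 counted here in the second group, and Pcdh12. The other 24 were entries of the clustered protocadherin locus (2 alpha, 21 beta and 1 gamma). A count was found in the kept cells for 53 of the 54 genes, and Pcdh12 had 0.

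Cells had been picked by hand from claustrum dissected from 4 mature male C57BL/6 mice. One mouse had received rAAV2-retro-CAG-GFP in the anterior cingulate cortex to outline the claustrum, and its cells were picked without regard to GFP (the blindly sampled mouse). The other 3 (projection mice 1 to 3) had received green retrobeads in the lateral entorhinal cortex (LEC) and red retrobeads in the retrosplenial cortex (RSC), and their cells were picked as RSC-labelled, LEC-labelled or unlabelled. Of 1112 harvested cells, 1011 had a count of both Snap25 and Slc17a7, the genes of a synaptic vesicle-fusion protein and of a vesicular glutamate transporter, and were kept: 247 RSC, 286 LEC and 240 unlabelled cells from the projection mice and 238 from the blindly sampled mouse. A bead label shows that an axon reached the injected area, and an unlabelled cell may still project there.

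The kept cells were divided by 2 genes outside the cadherin group. Synpr-high cells had at least 200 counts per 1000000 counts (CPM) of Synpr, a synaptic vesicle protein gene that marks the claustrum core (438 cells). Slc30a3 cells had at least 20 CPM of Slc30a3, a synaptic zinc transporter gene, and less Synpr (359 cells). The remaining 214 cells met neither limit, and 109 of them had counts of 3 or more of 8 cortical layer 6 markers. Counts were summed per mouse and class, so that each of the 4 mice (3 for labels) gave 1 value per class. The p-values measure the pooled spread of these sums within the classes. Sums of the same mouse were treated as independent, except where the mouse was a block. No cell name occurred in both tables. Summed CPM of the layer 6 markers ranged from 412 to 580 in the remaining cells, from 15.2 to 35.9 in Synpr-high and from 19.6 to 58.2 in Slc30a3 cells. That of 4 shell markers, with Slc30a3 left out, was 629 to 2269 in the remaining cells. It was 939 to 2215 in Slc30a3 and 53.7 to 125 in Synpr-high cells. The remaining cells are thus a mixed group that carries shell markers as well as layer 6 markers. The blindly sampled mouse was read less deeply, with a median of 26023 counts per cell against 138535 to 154261.5 in the others, and the part of depth was not tested beyond thinning and leaving that mouse out. Of the 13 plates 3 were sequenced in a run of their own, and the sources used here do not say which. Summed oligodendrocyte markers reached 875 CPM in Slc30a3 cells, 315 in Synpr-high and 45.0 in the remaining cells. Inhibitory markers reached 152 CPM in Synpr-high, 4.17 in Slc30a3 and 157 in the remaining cells. Without the 28 cells that carried both Gad1 and Gad2 or 3 or more glial or vascular markers, the numbers of cadherins called between the classes were the same.

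Classic cadherins bind like cadherins on the facing membrane and hold the actin skeleton through beta- and alpha-catenin. Delta protocadherins are single genes whose products steer axon growth and synapse number and act partly through actin-regulating proteins. Each neuron chooses clustered protocadherins from arrays, of alternative first exons for alpha and gamma and of genes without a shared exon for beta. This choice gives single neurons different surface identities.

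The count method read the 3' ends of transcripts, which bears on the clustered genes. In the GENCODE M21 annotation, all 13 alpha genes and all 22 gamma genes have a last exon that overlaps that of another member of their array, so their reads fall on shared exons. The tables held only Pcdha3, Pcdha5 and Pcdhga8 for both arrays, and these entries cannot be read as single isoforms. Of 22 annotated beta genes, which have no shared exon, only Pcdhb21 and Pcdhb22 overlap at their ends. Levels are tested here between groups of cells for 1 gene at a time. Where clustered genes are set side by side by counts or cells, their order may also reflect how each 3' end is annotated and read, which was not tested.

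The 250 bases upstream of the annotated start are shown for Cdh8 and Pcdh8, which were both higher in Synpr-high cells, and for Pcdh20, which was nearly absent from them. They come from the RefSeq promoter table (GRCm38.p6), which held 20 of the 54 genes. Capitals mark a TATA box (TATAAA), which was searched on both strands together with the NBRE (AAAGGTCA), the CRE (TGACGTCA) and the E-box (CACGTG). Cdh8 is on the minus strand at chr8:99416472-99416721, Pcdh8 on the minus strand at chr14:79771313-79771562 and Pcdh20 on the minus strand at chr14:88471397-88471646.
Cdh8: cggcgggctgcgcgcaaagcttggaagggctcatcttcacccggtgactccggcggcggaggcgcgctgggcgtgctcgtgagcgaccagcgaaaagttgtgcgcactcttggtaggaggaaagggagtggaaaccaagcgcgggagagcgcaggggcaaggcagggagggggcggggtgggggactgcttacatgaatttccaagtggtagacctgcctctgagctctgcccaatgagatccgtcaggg
Pcdh8: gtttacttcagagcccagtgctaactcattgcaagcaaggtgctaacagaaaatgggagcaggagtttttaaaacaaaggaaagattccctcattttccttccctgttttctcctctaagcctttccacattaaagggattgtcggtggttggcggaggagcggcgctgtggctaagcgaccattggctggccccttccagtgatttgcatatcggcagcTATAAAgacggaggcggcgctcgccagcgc
Pcdh20: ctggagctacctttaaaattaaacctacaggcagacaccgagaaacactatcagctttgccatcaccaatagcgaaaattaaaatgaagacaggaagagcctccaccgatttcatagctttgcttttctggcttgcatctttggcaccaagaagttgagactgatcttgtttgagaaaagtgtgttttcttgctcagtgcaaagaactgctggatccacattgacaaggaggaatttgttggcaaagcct
Of these 3 windows only that of Pcdh8 held one of the 4 motifs. A TATA box is in 12.4% of all 32851 windows of this length, an E-box in 6.02%, a CRE in 1.55% and an NBRE in 1.34%. None of the 23 windows of cadherin genes held an NBRE or a CRE, which says only that these letters are not there. The windows differ in base composition, with 20 CpG in that of Cdh8, 11 in that of Pcdh8 and 3 in that of Pcdh20, where the median over all windows is 6.

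A few cadherins changed strongly between the classes while most did not pass the test. The quasi-likelihood test of edgeR was run on the sums, adjusted over all genes by the Benjamini-Hochberg method with a threshold of 0.05, and 45 of the 54 genes passed the filter on low counts. Between Synpr-high and Slc30a3 cells 4 of 45 were called (3 higher, 1 lower), beside 6.71% of all 13104 genes tested (3.28% higher, 3.43% lower). Between Synpr-high and remaining cells 5 of 45 were called (3 higher, 2 lower), beside 8.97% of all genes (4.24% higher, 4.74% lower), and between Slc30a3 and remaining cells 1 of 45 (lower), beside 0.778% (0.298% higher, 0.481% lower). The median log2 fold change of the 45 genes was 0.08, 0.20 and -0.00 in these 3 comparisons, and that of all genes 0.01, 0.01 and 0.00. The 3 comparisons share their sums, so a gene that stands apart in 1 class enters more than 1 of them. DESeq2 called 5, 8 and 4 cadherins in the same order, beside 10.3%, 12.6% and 2.89% of all genes. With the mouse as a block edgeR called 4, 7 and 2, beside 11.2%, 13.9% and 2.04%. Without the blindly sampled mouse it called 5, 6 and 1, and without projection mouse 2 it called 2, 4 and 0. Without projection mouse 3 it called 2, 4 and 1. The shares of all genes called in these fits without 1 mouse are not given here. A change in these counts therefore cannot be told from a change over all genes.

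**Figure D1:**
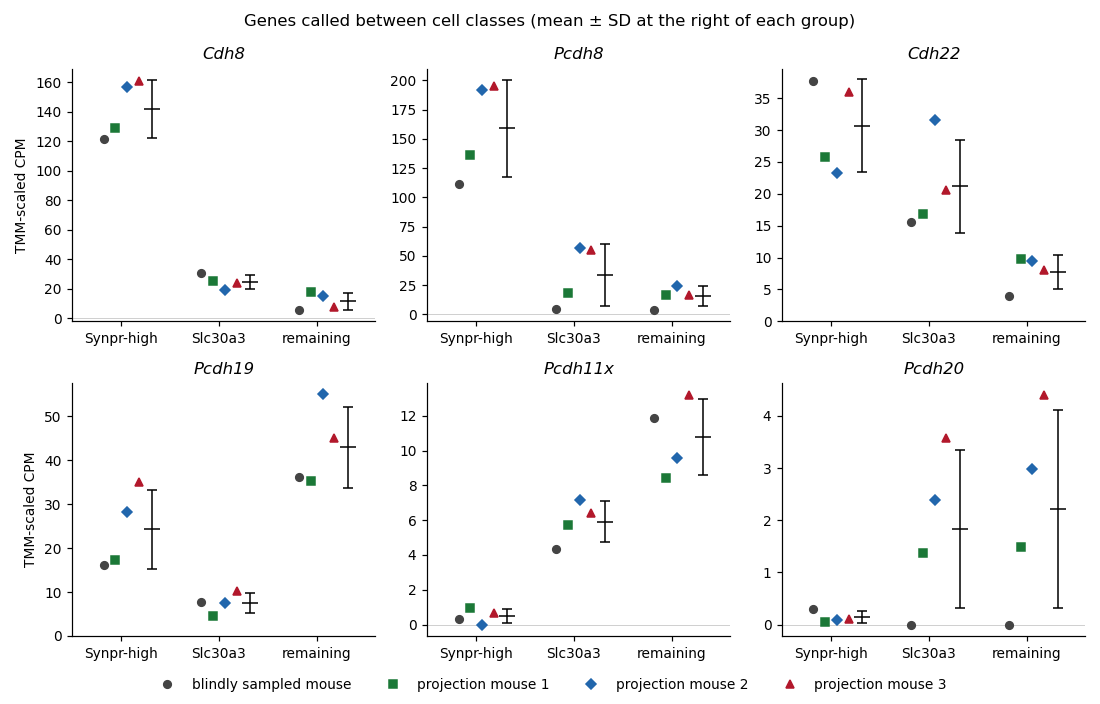
TMM-scaled CPM (y axes, linear) of 6 genes in Synpr-high, Slc30a3 and remaining cells (x axes). Each symbol is the summed cells of 1 mouse, and the bar is the mean ± SD over 4 mice. Cdh8 and Pcdh8 are high in Synpr-high cells, with Cdh8 between 122 and 161 there and between 19.5 and 30.4 in Slc30a3 cells, whereas Pcdh11x and Pcdh20 are near 0 in Synpr-high cells.

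Cdh8, a type II classic cadherin that mediates like-to-like adhesion at synapses of particular cortical and hippocampal circuits, was the cadherin most clearly tied to the Synpr-high cells. Its TMM-scaled CPM there was 122 in the blindly sampled mouse and 129, 157 and 161 in projection mice 1 to 3. In Slc30a3 cells it was 30.4, 25.3, 19.5 and 23.6 in the same order, and in the remaining cells 5.94, 17.5, 15.2 and 7.43. The 3 groups did not overlap. Cdh8 was 2.53 ± 0.29 log2 units (SE, n = 4 mice) higher in Synpr-high than in Slc30a3 cells (edgeR adjusted p = 0.000102; higher in 4 of 4 mice) and 3.57 ± 0.31 higher than in the remaining cells (adjusted p = 7.37e-06; 4 of 4). Both calls held under all 17 alternatives, with folds of 2.31 to 2.70 and 3.33 to 4.87. Slc30a3 cells exceeded the remaining cells by 1.03 ± 0.29 without passing the test (adjusted p = 0.141). It was a difference in the share of cells as well as in level: with every cell thinned to 20000 counts, 75.6% of 406 Synpr-high cells had a count of Cdh8 (67.1% to 82.6% over the mice), 17.8% of 331 Slc30a3 cells and 8.95% of 190 remaining cells. Without thinning the shares were 86.1%, 24.0% and 14.0%. Cdh8 overlaps an antisense gene, and the use of strand in counting is not given in the sources used here.

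Pcdh8, a delta-2 protocadherin also called arcadlin that is induced by neuronal activity and draws N-cadherin off the synaptic membrane, had a similar order. Its TMM-scaled CPM in Synpr-high cells was 112 in the blindly sampled mouse and 137, 192 and 195 in the projection mice. In Slc30a3 cells it was 4.35, 18.4, 56.6 and 54.8, and in the remaining cells 3.96, 16.4, 24.5 and 16.7. Synpr-high values lay above all others, while the other 2 classes overlapped and the blindly sampled mouse was lowest in each class. Pcdh8 was 2.21 ± 0.58 log2 units higher in Synpr-high than in Slc30a3 cells (edgeR adjusted p = 0.0323; 4 of 4 mice) and 3.31 ± 0.61 higher than in the remaining cells (adjusted p = 0.00354; 4 of 4). The call against Slc30a3 cells was lost when projection mouse 1, 2 or 3 was left out (adjusted p = 0.214, 0.107 and 0.144), with only cells without a projection label (adjusted p = 0.13) and in the fit with the remaining cells limited to layer 6 marker cells (adjusted p = 0.231), and the fold stayed between 1.99 and 2.58 over 17 alternatives. In the thinned cells a count of Pcdh8 was found in 73.4% of Synpr-high, 23.6% of Slc30a3 and 10.5% of remaining cells. Cdh8 and Pcdh8 were found in the same cell in 56.2% of thinned Synpr-high cells, in 4.53% of Slc30a3 cells and in 0.526% of the remaining cells. Pcdh8 overlaps an antisense gene.

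Pcdh19, an X-linked delta-2 protocadherin that forms a complex with N-cadherin and is mutated in an epilepsy of females, was lowest in Slc30a3 cells. Its TMM-scaled CPM there was 7.82 in the blindly sampled mouse and 4.58, 7.49 and 10.1 in the projection mice. Synpr-high cells gave 16.3, 17.3, 28.3 and 35.1, and the remaining cells 36.3, 35.2, 55.0 and 45.1. The 3 groups did not overlap. Pcdh19 was 1.70 ± 0.32 log2 units higher in Synpr-high than in Slc30a3 cells (edgeR adjusted p = 0.00458; 4 of 4 mice). In Slc30a3 cells it was 2.51 ± 0.33 log2 units below the remaining cells, a log2 fold change of -2.51 (adjusted p = 0.00272; lower in 4 of 4). Synpr-high against remaining cells gave -0.82 ± 0.30 (adjusted p = 0.128), and -0.87 under the mouse block (adjusted p = 0.0217). Both calls against Slc30a3 cells were lost without projection mouse 2 (adjusted p = 0.0611 against Synpr-high and 0.0793 against remaining cells). Where only cells without a projection label were used, the excess in Synpr-high over Slc30a3 cells was 0.50 (adjusted p = 0.752), a setting chosen after seeing the data. Pcdh19 overlaps an antisense gene.

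Pcdh11x and Pcdh20 were close to absent from the Synpr-high cells. Pcdh11x, an X-linked delta-1 protocadherin, had a TMM-scaled CPM of 0.307, 0.939, 0 and 0.657 in Synpr-high cells (blindly sampled mouse, then projection mice 1 to 3). It was at 4.35, 5.75, 7.15 and 6.43 in Slc30a3 cells and at 11.9, 8.41, 9.60 and 13.2 in the remaining cells, and no groups overlapped. Its log2 fold change was -3.51 ± 0.71 in Synpr-high against Slc30a3 cells (edgeR adjusted p = 0.00767; lower in 4 of 4 mice) and -4.36 ± 0.74 against the remaining cells (adjusted p = 0.00189; 4 of 4). The first call was lost without projection mouse 3 (adjusted p = 0.0925), and with at least 2 counts of Snap25 and Slc17a7 asked of each cell the fold was -6.97. A count was found in 4 of 438 Synpr-high, 24 of 359 Slc30a3 and 31 of 214 remaining cells.

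Pcdh20, counted here with the delta-2 protocadherins, was found in 26 of the 1011 kept cells. Its TMM-scaled CPM was 0.307, 0.0552, 0.0822 and 0.109 in Synpr-high cells, 0, 1.37, 2.38 and 3.57 in Slc30a3 cells, and 0, 1.48, 2.98 and 4.40 in the remaining cells. The projection mice separated in the same direction and the blindly sampled mouse had no count in the last 2 classes. The log2 fold change of Synpr-high against remaining cells was -4.28 ± 1.22 (edgeR adjusted p = 0.0426; lower in 3 of 4 mice), and the call was lost under the mouse block (adjusted p = 0.0569), with a Synpr limit of 100 CPM (adjusted p = 0.0501), with no filter on low counts (adjusted p = 0.0828) and without projection mouse 1, 2 or 3 (adjusted p = 0.192 to 0.301). A single cell held 39.7% of its counts in the remaining cells.

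Cdh22, a type II cadherin, was higher in Synpr-high than in remaining cells, and lay in between in Slc30a3 cells. Its TMM-scaled CPM was 37.8, 25.7, 23.3 and 36.1 in Synpr-high, 15.6, 16.8, 31.7 and 20.6 in Slc30a3 and 3.96, 9.78, 9.44 and 7.98 in the remaining cells. The remaining cells lay below every value of the other classes, which overlapped. The log2 fold change was 1.92 ± 0.33 for Synpr-high against remaining cells (edgeR adjusted p = 0.0019; 4 of 4 mice) and 1.40 ± 0.32 for Slc30a3 against remaining cells, which did not pass (adjusted p = 0.0685; 4 of 4). With only cells without a label the first had an adjusted p of 0.0715.

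**Figure D2:**
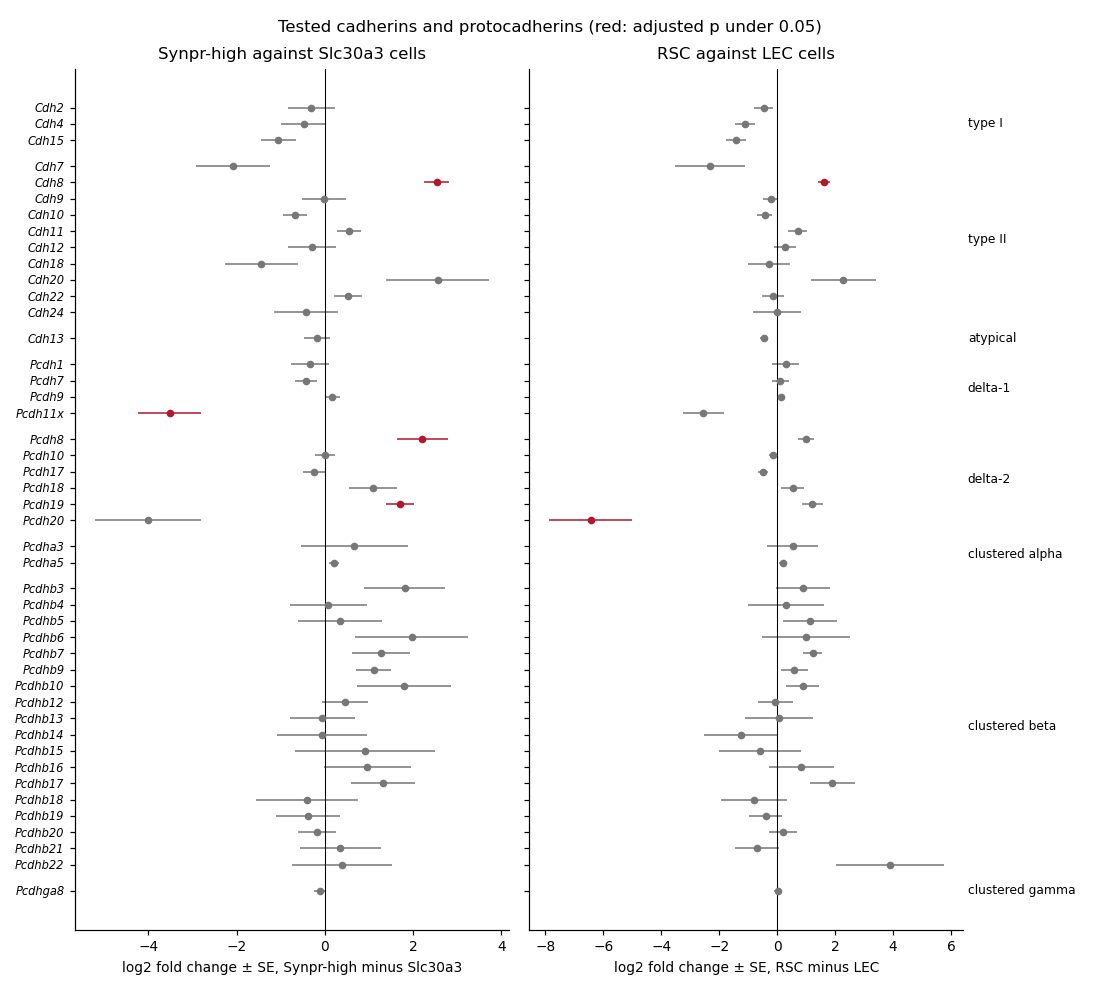
Log2 fold change ± SE (x axes) of the 45 tested genes in rows by group, for Synpr-high against Slc30a3 cells (left, 4 mice) and RSC against LEC cells (right, 3 mice), on axes of different range. Red marks an adjusted p under 0.05, with Cdh8 at 2.53 and 1.62. Most of the other genes lie near 0 or have wide errors, the widest among the sparse beta genes.

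When the remaining cells were limited to the 109 cells with layer 6 markers, more cadherins were called. Of 43 tested genes 13 were called between Synpr-high cells and these cells (9 higher, 4 lower), beside 11.4% of all 12563 genes (6.21% higher, 5.17% lower), and 8 between Slc30a3 cells and these cells (6 higher, 2 lower), beside 5.29% (3.27% higher, 2.02% lower). The median log2 fold change of the 43 genes was 0.20 and -0.02, and that of all genes 0.03 and 0.02. Type II cadherins made up 6 and 4 of those calls, of 10 tested. The cells were selected by the number of layer 6 markers detected, with no regard to the depth of the cell.

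Cdh9, a type II cadherin known from hippocampal mossy fibre synapses, showed the pattern plainly. In summed counts without TMM scaling its CPM was 35.0, 70.0, 75.3 and 45.0 in Synpr-high cells and 36.4, 76.7, 49.5 and 72.6 in Slc30a3 cells, which overlapped fully. In layer 6 marker cells it was 0, 3.45, 7.66 and 14.3, below all of them, and in the other remaining cells 10.5, 41.2, 63.3 and 94.2. The log2 fold change was 3.08 ± 0.56 for Synpr-high (edgeR adjusted p = 0.00227) and 3.10 ± 0.56 for Slc30a3 cells (adjusted p = 0.00416) against the layer 6 marker cells. Against all remaining cells the same contrasts gave 0.90 ± 0.50 (adjusted p = 0.359) and 0.92 ± 0.50 (adjusted p = 0.606). Synpr-high against Slc30a3 cells gave -0.01 ± 0.50 for Cdh9 (adjusted p = 1), and the sign turned under 7 of 17 alternatives. Cdh9 overlaps an antisense gene.

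Cdh8 and Cdh22 were also low in the layer 6 marker cells. Cdh8 had a CPM of 0.925, 7.97, 6.38 and 2.32 there, and Slc30a3 cells exceeded it by 2.35 ± 0.37 log2 units (edgeR adjusted p = 0.00191). Cdh22 had 1.85, 7.70, 0.319 and 0, and was 3.55 ± 0.77 lower than in Synpr-high cells (adjusted p = 0.00782) and 3.03 ± 0.76 lower than in Slc30a3 cells (adjusted p = 0.0328). Cdh4, the type I R-cadherin, had 3.70, 13.3, 4.47 and 15.6, against 40.7, 33.6, 38.6 and 49.0 in Slc30a3 cells, which did not overlap, and 50.6, 14.1, 23.9 and 23.4 in Synpr-high cells, which did. Its log2 fold change was 2.07 ± 0.47 for Slc30a3 cells (adjusted p = 0.018) and 1.58 ± 0.46 for Synpr-high cells (adjusted p = 0.0409). Cdh15, the type I M-cadherin first known from muscle, was called in Slc30a3 cells alone, at 16.5, 34.2, 25.1 and 41.9 CPM against 3.70, 8.23, 8.61 and 12.9 (1.77 ± 0.42, adjusted p = 0.0238).

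Other cadherins were highest in the layer 6 marker cells. Cdh11, a type II cadherin, had a CPM of 54.6, 77.0, 49.4 and 38.2 there, above 30.6, 28.6, 27 and 28.2 in Synpr-high and 27.1, 24.5, 16.1 and 14.3 in Slc30a3 cells. The log2 fold change was -1.44 ± 0.28 for Slc30a3 (edgeR adjusted p = 0.00718) and -0.90 ± 0.27 for Synpr-high cells (adjusted p = 0.0469). Pcdh19 had 41.6, 71.7, 97.9 and 87.3 there, against 21, 8.37, 8.70 and 16.0 in the other remaining cells, so its high level in the remaining cells lay in the layer 6 marker cells. The log2 fold change of Pcdh19 against them was -3.31 ± 0.37 for Slc30a3 (adjusted p = 0.000132) and -1.62 ± 0.34 for Synpr-high cells (adjusted p = 0.00629). Cdh18, a type II cadherin, had 16.6, 41.2, 17.9 and 14.9 in the layer 6 marker cells and was lower in Synpr-high cells (-3.54 ± 0.88, adjusted p = 0.0176). Pcdh11x remained called in Synpr-high cells (-4.18 ± 0.84, adjusted p = 0.00451), and Pcdh8 was 4.31 ± 1.0 higher there than in layer 6 marker cells (adjusted p = 0.0116). Cdh20, a type II cadherin, was higher in Synpr-high cells, at 2.02, 3.55, 3.21 and 3.30 CPM, against 0.319 in projection mouse 2 and 0 in the other 3 mice. Pcdhb3, Pcdhb4 and Pcdhb9 were the beta genes called higher in Synpr-high cells, of 17 tested. Pcdhb3 had 2.31, 10.2, 2.73 and 3.73 CPM there, against 0, 0.797, 0.319 and 0.332 in layer 6 marker cells (adjusted p = 0.0427), with no overlap. Pcdhb4 had 0.867, 0.655, 2.33 and 3.04 in Synpr-high and 0.847, 1.58, 1.35 and 2.94 in Slc30a3 cells, and no count in layer 6 marker cells (edgeR adjusted p = 0.0198 and 0.0378). It was found in 14 of 438 Synpr-high, 7 of 359 Slc30a3 and 3 of 214 remaining cells. A single cell held 43.0% of its counts in Synpr-high and 55.7% in Slc30a3 cells. With so few cells, absence from the layer 6 marker cells cannot be told from sparse detection. Pcdhb9 had 17, 13.3, 34.8 and 22.7 in Synpr-high cells against 5.55, 12, 4.78 and 3.32 (1.80 ± 0.45, adjusted p = 0.0171), with no overlap.

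**Figure D3:**
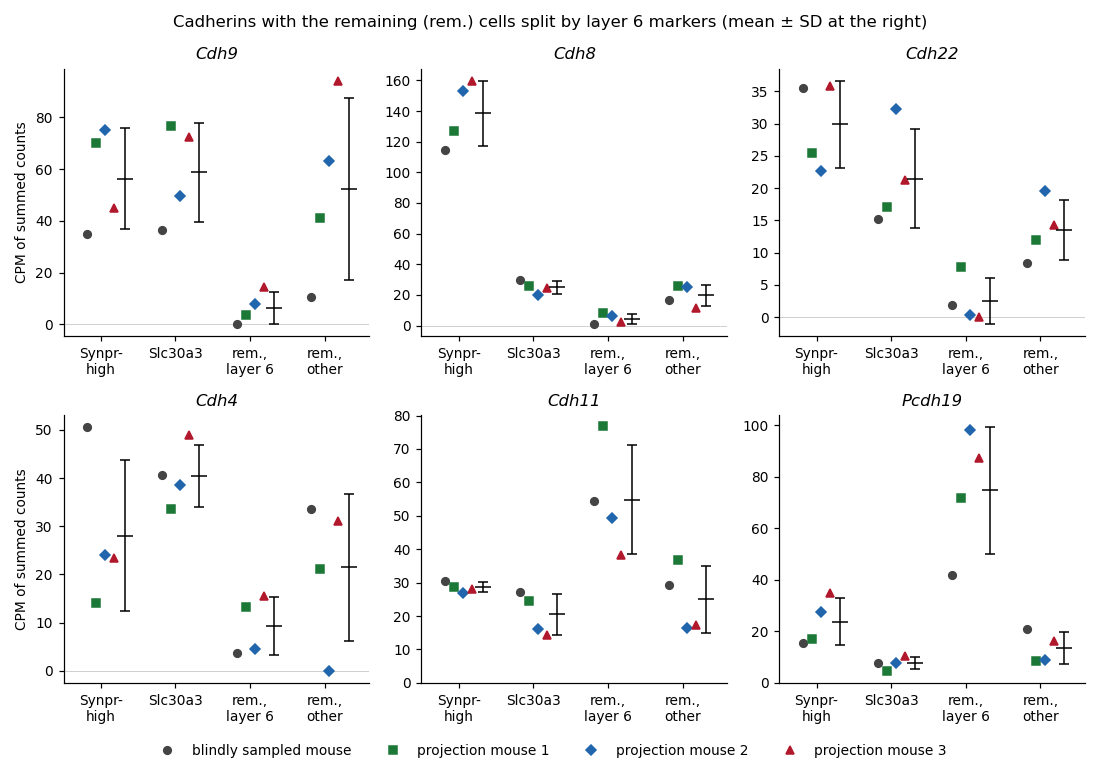
CPM of summed counts (y axes, linear) for 6 genes in Synpr-high cells, Slc30a3 cells and the remaining (rem.) cells with and without 3 or more layer 6 markers (x axes). Each symbol is 1 mouse and the bar is the mean ± SD over 4 mice. Cdh9 lies between 0 and 14.3 in the layer 6 marker cells and between 35.0 and 76.7 in the Synpr-high and Slc30a3 cells, while Cdh11 and Pcdh19 are highest in the layer 6 marker cells.

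The rest of the classic and delta genes gave no call between the 3 classes. Among the type I cadherins this held for Cdh2, the broadly expressed N-cadherin, and for Cdh4 and Cdh15, the other 2 tested. Cdh2 had a TMM-scaled CPM of 33.2, 13.4, 19.1 and 10.4 in Synpr-high cells and 46.9, 11.6, 18.5 and 17.4 in Slc30a3 cells. Both ranges overlapped and the blindly sampled mouse was highest in each. Among the type II cadherins Cdh10 was lower in Synpr-high than in Slc30a3 cells in 4 of 4 mice, with 24.3, 22.5, 18.2 and 26.9 against 37.8, 39.4, 31.0 and 37.6, but did not pass (-0.67 ± 0.27, edgeR adjusted p = 0.203). Against the remaining cells Cdh10 gave -0.84 ± 0.27 (adjusted p = 0.0746), and was called with the mouse as a block in the same contrast, as was Cdh18. The type II cadherins Cdh7, Cdh12 and Cdh24 were found in 51, 127 and 62 kept cells and gave no call. Cdh7 was at 0.164 to 2.46 in Synpr-high and 2.42 to 6.08 in Slc30a3 cells, Cdh12 at 6.66 to 11.3 and 5.41 to 18.7, and Cdh24 at 0.718 to 5.22 and 1.66 to 4.35. Cdh20, found in 39 kept cells, was at 2.15 to 3.59 in Synpr-high and 0 to 0.994 in Slc30a3 cells. It was higher in Synpr-high cells in 4 of 4 mice with no overlap, but was not called.

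Pcdh9, Pcdh10 and Pcdh17 were delta protocadherins with many counts and no call between the classes. Pcdh9, a delta-1 gene found in 959 cells, had a TMM-scaled CPM of 262, 436, 353 and 373 in Synpr-high and 236, 344, 358 and 326 in Slc30a3 cells, a log2 difference of 0.17 ± 0.17 (edgeR adjusted p = 0.745). Pcdh10, a delta-2 gene needed for forebrain axon growth, had 105, 96.2, 116 and 87.2 against 90.8, 104, 115 and 92.2 (0.00 ± 0.23). Pcdh17, a delta-2 gene that guides axon extension and synapse assembly, had 77.1, 134, 122 and 102 against 76.9, 146, 136 and 159 (-0.25 ± 0.25, adjusted p = 0.748). In these 3 genes the groups overlapped. Pcdh1, Pcdh7 and Pcdh18 gave no call either, with mean values of 5.48, 43.6 and 8.50 in Synpr-high cells and 7.01, 58.7 and 3.86 in Slc30a3 cells. Pcdh7 was lower in Synpr-high than in Slc30a3 cells in 4 of 4 mice with no overlap. Pcdh18 was higher in Synpr-high than in remaining cells in 4 of 4 mice with no overlap.

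RSC- and LEC-labelled cells differed in 2 of 45 cadherins by the same test (1 higher, 1 lower), beside 3.95% of all 13976 genes tested (1.89% higher, 2.06% lower). The median log2 fold change was 0.10 for these genes and -0.00 for all. DESeq2 called 9, beside 8.22%, and edgeR with the mouse as a block called 2, beside 3.86%. Summed inhibitory markers were at 6.92 to 213 CPM in RSC and 0.162 to 2.25 CPM in LEC cells, where Gad1, Gad2 and Sst were at 0. Without the cells carrying inhibitory or glial markers edgeR called 6 cadherins, without projection mouse 1 or 3 it called 1, and without projection mouse 2 it called 0. The shares of all genes in these fits are not given here, so the counts are not read as a change in the cadherins. The label and the class were strongly linked: 213 of 247 RSC cells but 45 of 286 LEC cells were Synpr-high. Cdh8 had a TMM-scaled CPM of 117, 155 and 149 in the RSC cells of projection mice 1 to 3, 53.0, 39.9 and 43.7 in LEC cells and 47.1, 52.7 and 77.5 in unlabelled cells. RSC and LEC values did not overlap, and Cdh8 was 1.62 ± 0.21 log2 units higher in RSC cells (edgeR adjusted p = 0.00275; 3 of 3 mice). The call was lost without projection mouse 2 (adjusted p = 0.0785), and the fold stayed between 1.46 and 1.87 over 10 alternatives.

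Pcdh20 was the other called gene, with 1 count in 1 of 247 RSC cells and 159 counts in 16 of 286 LEC cells. Its TMM-scaled CPM was 0.0771, 0 and 0 in RSC cells, 1.71, 2.52 and 4.89 in LEC cells and 0.212, 1.74 and 0.425 in unlabelled cells. Relative to the total counts this was 134-fold more in LEC cells. An exact 95% interval of 23.6 to 5310 treats every count as independent. The counts came from 16 LEC cells of 3 mice, so this interval is too narrow and is no measure of the spread between cells or mice. The edgeR test gave an adjusted p of 0.0313 (lower in 3 of 3 mice), and 0.0666 under the mouse block. The call was also lost without any 1 of the 3 mice (adjusted p = 0.0775, 0.175 and 0.345). A single cell held 20.1% of the LEC counts.

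Some genes of the class comparison had the same direction by label without passing. Pcdh8 had a TMM-scaled CPM of 108, 152 and 211 in RSC and 58.6, 96.4 and 81.4 in LEC cells, a log2 difference of 1.0 ± 0.26 (edgeR adjusted p = 0.0623; 3 of 3 mice), which was called with the mouse as a block. Pcdh11x had 1.31, 0.144 and 1.84 in RSC and 5.39, 7.14 and 7.59 in LEC cells (-2.54 ± 0.70, adjusted p = 0.0743). Cdh15 had 13.1, 9.95 and 12.5 in RSC and 32.2, 25.3 and 37.9 in LEC cells (-1.42 ± 0.35, adjusted p = 0.0517). None of these 3 genes overlapped between RSC and LEC cells, but they were picked, and the share of all genes without overlap is not given here. Of the other genes called between classes, Pcdh19 was higher in RSC cells in 3 of 3 mice but overlapped. Cdh22 was higher in 2 of 3 and overlapped. Cdh9 gave -0.22 ± 0.25 between RSC and LEC cells (adjusted p = 0.772).

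Within the Synpr-high class no cadherin separated RSC from LEC cells by the edgeR test: 0 of 42 were called, beside 0.0% of all 12328 genes, and 3 had an unadjusted p under 0.05. DESeq2 called 2 of them, Cdh12 and Cdh15, beside 0.104% of all genes. Cdh8, which differed between all RSC and LEC cells, had a TMM-scaled CPM of 128, 181 and 153 in RSC Synpr-high cells and 130, 150 and 183 in LEC Synpr-high cells. The ranges overlapped and the log2 difference was -0.00 ± 0.28 (adjusted p = 1). Pcdh8 had 115, 188 and 220 against 162, 250 and 183, which also overlapped (-0.18 ± 0.53). Cdh12, a type II cadherin, had 15.5, 11 and 10.4 in RSC and 0.669, 0 and 0 in LEC Synpr-high cells, from 30 of 213 and 1 of 45 cells. Cdh12 overlaps an exon of another gene, Gm49685, on the same strand, and the part of this overlap in its counts was not tested. Cdh15 had 14.1, 11 and 11.4 in RSC Synpr-high cells, from 15 of 213 cells, and no count in 45 LEC Synpr-high cells. LEC Synpr-high cells numbered 11 to 18 a mouse.

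Within the Slc30a3 class 2 of 42 cadherins were called between RSC and LEC cells (1 higher, 1 lower), beside 0.292% of all genes (0.17% higher, 0.122% lower). DESeq2 called 5, beside 3.98%, and edgeR with the mouse as a block called 3, beside 0.162%. Pcdh17 had a TMM-scaled CPM of 21.7, 34.9 and 9.55 in RSC cells and 186, 153 and 193 in LEC cells of projection mice 1 to 3. In Synpr-high cells it was 135, 135 and 95 with the RSC label and 132, 107 and 113 with the LEC label. Only the RSC Slc30a3 cells were low. The log2 fold change within the Slc30a3 class was -3.02 ± 0.35 (edgeR adjusted p = 0.00484; lower in 3 of 3 mice). The test of the difference between the classes gave 3.07 ± 0.47 (adjusted p = 0.0358), the 1 call among 42 cadherins beside 0.0649% of all genes (0.0406% higher, 0.0243% lower), and it missed the threshold under the mouse block (adjusted p = 0.0573), with a Synpr limit of 100 CPM (adjusted p = 0.0739) and without any 1 of the mice (adjusted p = 0.34 to 0.399). Cdh8 in Slc30a3 cells was 38.2, 84.8 and 71.7 with the RSC and 19.8, 16.9 and 18.4 with the LEC label, which did not overlap (1.80 ± 0.30, adjusted p = 0.031; 3 of 3 mice). The difference of that effect from the Synpr-high class was -1.81 ± 0.41 (edgeR adjusted p = 0.188, from 0.00253 to 0.632 over the alternatives). For the difference between the classes DESeq2 called 4 cadherins, beside 0.949% of all genes, and edgeR with the mouse as a block called 0, beside 0.0324%.

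These 2 calls rested on 22 RSC Slc30a3 cells, 6 to 9 a mouse, and both were lost when any 1 mouse was left out (adjusted p = 0.103 to 0.127 for Pcdh17 and 0.0565 to 0.348 for Cdh8). The Cdh8 call was also lost with a Synpr limit of 400 CPM (adjusted p = 0.0571). Markers of both classes moved with them: 5 core markers, with Synpr left out, summed to 949 to 2061 CPM in RSC and 249 to 505 CPM in LEC Slc30a3 cells, and 4 shell markers, with Slc30a3 left out, to 697 to 849 and 1793 to 2561 CPM. Oligodendrocyte markers reached 5168 CPM in 1 mouse of the RSC Slc30a3 sums and 204 CPM in the LEC sums. Their part in the result was not tested, apart from the fit without cells carrying glial markers, in which both genes were called. Cdh13, an atypical cadherin held by a lipid anchor with no cytoplasmic part, is not among the genes named by rule and was chosen after its values were seen. It had 257, 73.6 and 182 in RSC and 503, 623 and 657 in LEC Slc30a3 cells (-1.78 ± 0.34, edgeR adjusted p = 0.0511).

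**Figure D4:**
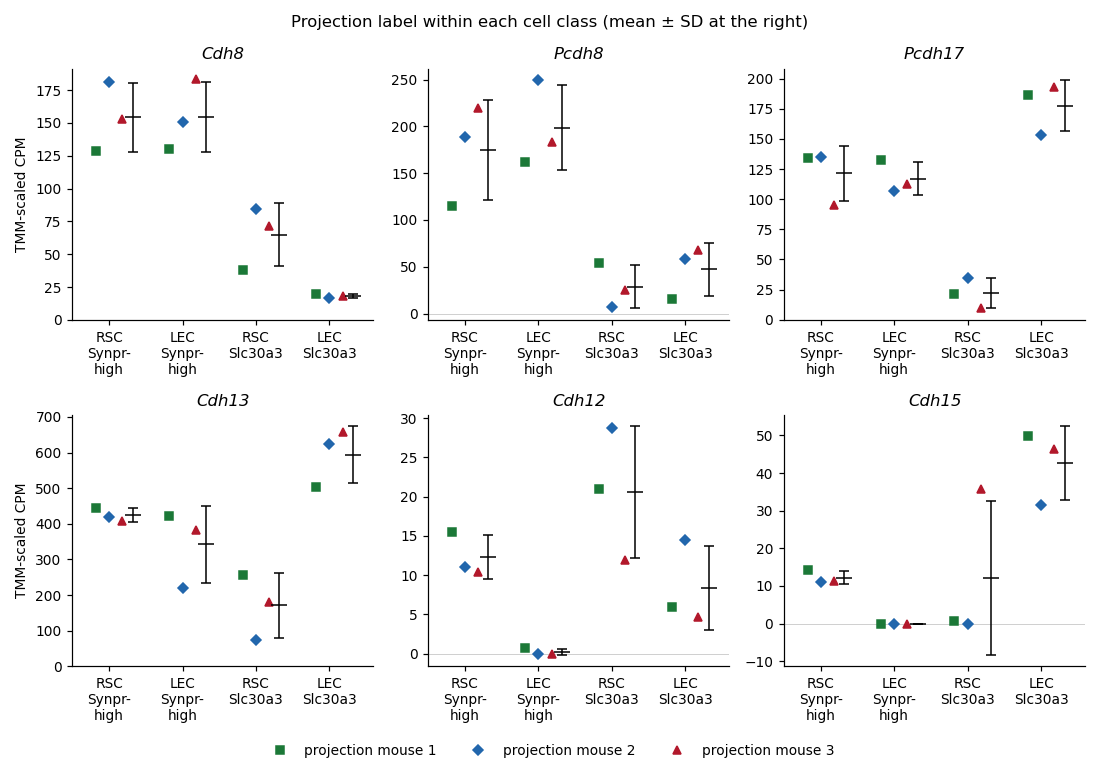
TMM-scaled CPM (y axes, linear) of 6 genes in RSC- and LEC-labelled cells of the Synpr-high and the Slc30a3 class (x axes). Each symbol is 1 of the 3 projection mice and the bar is the mean ± SD. Cdh8 is alike in both labels of the Synpr-high class (128 to 183), and Pcdh17 is low in RSC Slc30a3 cells alone (9.55 to 34.9).

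The clustered protocadherins gave no edgeR call in any of the comparisons by class, by label or by label within class, apart from the 3 beta genes against the layer 6 marker cells. By class and by label 2 alpha, 18 beta and 1 gamma entries were tested, and 16 beta genes within class. Of all genes, 6.71%, 8.97% and 0.778% were called by class, 3.95% by label, and 0.0% and 0.292% by label within class. With so few entries, the absence of calls cannot be told from these shares. Pcdha5, the entry that held nearly all alpha counts, was found in 903 of 1011 cells and Pcdhga8, the gamma entry, in 977. Pcdha5 had a TMM-scaled CPM of 217, 263, 229 and 227 in Synpr-high, 214, 213, 201 and 188 in Slc30a3 and 256, 221, 251 and 220 in the remaining cells. Pcdhga8 had 277, 249, 235 and 295 in Synpr-high and 280, 311, 245 and 301 in Slc30a3 cells. Pcdha5 was lowest in Slc30a3 cells in 4 of 4 mice, with no overlap with either of the other classes, but did not pass (0.20 ± 0.11 in Synpr-high against Slc30a3 cells, edgeR adjusted p = 0.412, and -0.22 ± 0.11 in Slc30a3 against remaining cells, adjusted p = 0.552). Pcdhga8 overlapped between Synpr-high and Slc30a3 cells (-0.11 ± 0.14, adjusted p = 0.843). RSC against LEC cells gave 0.20 ± 0.13 for Pcdha5 and 0.03 ± 0.13 for Pcdhga8. Pcdha3 had 308 counts in 36 cells.

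The beta genes were sparse from cell to cell. Each of the 21 had a count in 1 to 130 of the 1011 cells, that is in 0.0989% to 12.9% of them, and in 0.108% to 9.60% of the 927 cells thinned to 20000 counts. The most widely found were Pcdhb9 (130 cells), Pcdhb20 (126 cells) and Pcdhb12 (125 cells), and the least were Pcdhb8 (1 cell), Pcdhb2 (5 cells) and Pcdhb11 (6 cells). Where Pcdhb9 was found its median was 10 counts, and the highest cell had 124. Pcdhb7, with 96 cells, had a TMM-scaled CPM of 24.9, 8.90, 17.7 and 19.2 in Synpr-high and 3.91, 16.9, 4.24 and 3.67 in Slc30a3 cells, and RSC exceeded LEC cells by 1.23 ± 0.34 without passing (edgeR adjusted p = 0.0719). Pcdhb9 had 18.1, 13.5, 35.6 and 22.9 in Synpr-high and 10.9, 9.56, 9.01 and 12.5 in Slc30a3 cells, with no overlap, and did not pass (1.11 ± 0.39, adjusted p = 0.127; 4 of 4 mice).

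A single thinned cell held 0.724 beta genes on average. None was found in 47.2% of the 927 cells, exactly 1 in 36.1%, 2 in 14.0%, 3 in 2.16% and 4 in 0.431%, and no cell had more. Synpr-high cells held 0.924 on average, with 0.835, 0.954, 1.0 and 0.913 in the 4 mice, and Slc30a3 cells 0.580, with 0.574, 0.600, 0.557 and 0.589. The mice did not overlap between these classes. The number of all genes found in a thinned cell of each class is not given here. Whether the difference is particular to the beta genes was therefore not tested. The remaining cells held 0.547, with 0.719, 0.538, 0.385 and 0.574, which overlapped the Slc30a3 cells. At the deposited depth the averages were 1.33, 0.847 and 0.818, and the highest number in 1 cell was 6. A beta gene without a count in a cell may still be expressed there below the depth.

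**Figure D5:**
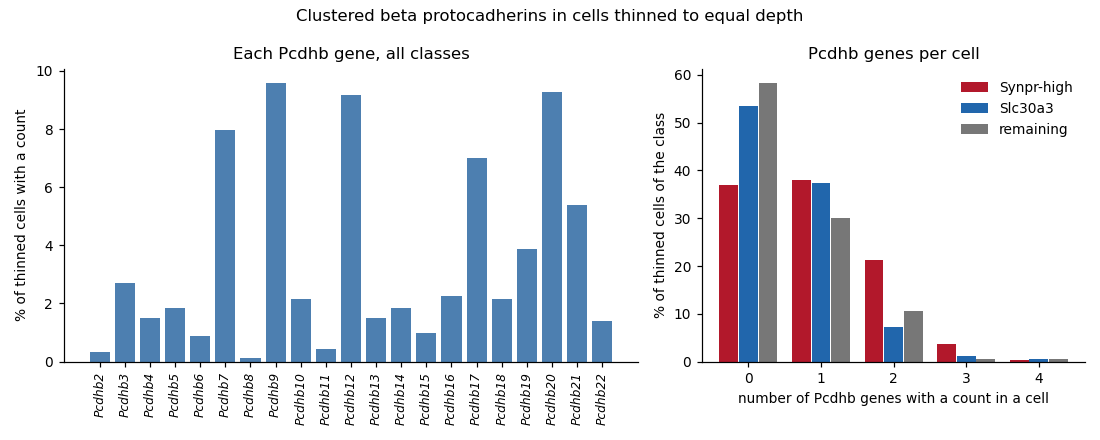
Share of the 927 thinned cells (y axis, %) with a count of each of the 21 beta protocadherins (left), and share of the thinned cells of each class by the number of different beta genes found in a cell (right). Each beta gene is found in at most 9.60% of cells. Cells with none make up 36.9% of the Synpr-high, 53.5% of the Slc30a3 and 58.4% of the remaining cells.

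Of 18 listed catenins and junction partners of the classic cadherins, 13 were tested, and 2 were higher and 1 lower in Synpr-high than in Slc30a3 cells, beside 3.28% and 3.43% of all genes. Ctnna2, neuronal alpha-catenin, which links cadherins to actin, had a TMM-scaled CPM of 113, 189, 188 and 163 in Synpr-high and 28.2, 90.6, 70.4 and 63.4 in Slc30a3 cells, with no overlap (1.36 ± 0.32, edgeR adjusted p = 0.0171; 4 of 4 mice). It was also higher against the remaining cells (1.72 ± 0.32, adjusted p = 0.00392) and in RSC against LEC cells (1.06 ± 0.16, adjusted p = 0.00477). Ctnnb1, beta-catenin, had 250, 300, 311 and 250 against 176, 143, 181 and 174, with no overlap (0.72 ± 0.13, adjusted p = 0.00368). The lower gene was Pvrl1, the adhesion protein nectin-1, at -3.07 ± 0.68 (adjusted p = 0.0133). Against the remaining cells 3 of the 13 rose (Arvcf, Ctnna2 and Ctnnb1) and 2 fell (Ctnnd2 and Pkp4), beside 4.24% and 4.74% of all genes.

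Of 8 delta protocadherin partners, all tested, Cyfip1 was higher in Synpr-high than in Slc30a3 cells (1.28 ± 0.21, edgeR adjusted p = 0.00205). Cyfip1 and Nckap1, both subunits of the WAVE complex that branches actin, were higher in Synpr-high than in the remaining cells (1.45 ± 0.22 and 0.63 ± 0.12). Of all genes 3.28% were higher and 3.43% lower in Synpr-high against Slc30a3 cells. Against the remaining cells the shares were 4.24% and 4.74%. Of 8 partners and promoter-choice genes of the clustered protocadherins 7 were tested, and Ptk2b, a kinase that clustered protocadherins hold inactive, was lower in Synpr-high than in Slc30a3 cells (-0.74 ± 0.18, adjusted p = 0.0255). Ptk2 of the same list was called lower in Synpr-high than in the remaining cells. None of 4 listed genes of the proteases that cleave cadherins passed in either comparison. Of 19 other genes of the cadherin superfamily 9 were tested: the large cadherins Fat1 (4.44 ± 0.90, adjusted p = 0.00739) and Fat3 (2.06 ± 0.58, adjusted p = 0.047) were higher in Synpr-high cells, and Clstn2, a synaptic calsyntenin, was lower (-1.96 ± 0.32, adjusted p = 0.0015). Celsr2 of the superfamily list was called lower in Synpr-high than in the remaining cells. In RSC against LEC cells Fat1 was higher (2.29 ± 0.47, adjusted p = 0.0223) and Clstn2 (-0.97 ± 0.21, adjusted p = 0.0253) and Ptk2b (-0.52 ± 0.12, adjusted p = 0.0426) were lower. Of all genes 1.89% were higher and 2.06% lower there.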

How the data were processed

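Claustrum cells of 4 mice, on 13 plates, were read with barcoded oligo-dT primers, so that counts came from transcript 3' ends. Per the methods of the authors, reads were tagged to cell barcodes and molecular identifiers and aligned with STAR. The deposited tables hold whole-number counts per gene and cell. Depth is stated there as reads per cell, similar in size to the counts per cell here. Whether copies of a molecule were collapsed is not given in the sources used here. Intervals treat each count as independent, so they cover counting error at most, and not even that if copies were kept. The submitters' processing notes name build NCBIM37 and Seurat. Overlaps between genes were read from GENCODE M21, and whether they hold in the annotation used for counting was not tested. A gene listed in 1 table only (6 of the 54) entered with 0 counts in the other.

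Counts were summed per mouse in each class or label, with at least 5 cells a sum and 1557282 to 27601436 counts per class sum. The sums were filtered with filterByExpr, scaled by TMM and tested with edgeR 4.0.16 in R 4.3.3. DESeq2 1.42.0 was an alternative. Cells were thinned to 20000 counts for shares. Exact binomial and Poisson 95% intervals came from scipy 1.17.1. The fits were tested on simulated data. Mice, not cells, are the replicates. Sums of 1 mouse are paired by animal: their deviations had a median correlation of 0.187 in the fit by class (0.0449 by label, 0.0307 by label within class), and the mouse as a block was an alternative.

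The cadherins and the partner lists were chosen with earlier results of these data known. Named with values were every called gene (also those called against the layer 6 marker cells alone), every classic or delta gene that passed the filter, Cdh9, and the called and most counted clustered genes.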

Additional observations from a re-analysis of the deposited data

Results flagged for a closer look

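In 87 groups of 4 mice (29 named genes in 3 classes), 6 had 1 mouse far from the other 3, and chance alone gives about 1 in 20. In the remaining cells the blindly sampled mouse had 55.4 TMM-scaled CPM of Cdh2 where the projection mice had 15.0 to 17.2. Projection mouse 2 had 2.82 of Cdh20 in the remaining cells (0 to 0.114 in the others) and 8.45 of Cdh7 (1.98 to 3.07). Projection mouse 1 had 1.66 of Cdh24 in Slc30a3 cells (3.91 to 4.35 in the others), 16.9 of Pcdhb7 in Slc30a3 cells (3.67 to 4.24), and 7.29 of Pcdha3 in Synpr-high cells (0.307 to 0.904).

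The effect of the projection label on Pcdh17 differed between the classes, with an interaction of 3.07 log2 units (edgeR adjusted p = 0.0358), and it rests on 22 RSC Slc30a3 cells.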

How the results depend on the processing

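Of 526 values of 34 gene results under alternatives, 455 kept their direction and side of the threshold, 33 fell below it, 31 rose past it, and 7 turned sign, all of them Cdh9 in Synpr-high against Slc30a3 cells: 0.0237 with a Slc30a3 limit of 10 CPM, 0.0197 with the mouse as a block, 0.0171 without Gad1 and Gad2 or glial cells, 0.15 with only cells without a label, 4.28e-05 after thinning, and -0.26 to 0.20 without 1 mouse (above 0 without projection mouse 1 or 3).

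Numbers of called cadherins moved by over 1.5 times as follows. For Synpr-high against Slc30a3 cells (4), cells without a label gave 2. Against the remaining cells (5), DESeq2 gave 8 and the layer 6 marker limit 13. For Slc30a3 against remaining cells (1), DESeq2 gave 4, the layer 6 marker limit 8, and a Slc30a3 limit of 10 CPM, a Synpr limit of 100 CPM and the mouse as a block 2 each. For RSC against LEC cells (2), DESeq2 gave 9, leaving out Gad1 and Gad2 or glial cells 6, and thinning, no filter on low counts and at least 2 counts of Snap25 and Slc17a7 gave 4 each. Within Synpr-high cells (0), DESeq2 gave 2. Leaving out 1 mouse gave 2 to 5, 4 to 6, 0 to 1 and 0 to 1 calls in the first 4 comparisons and 0 to 0 within Synpr-high cells. Among the alternatives, shares of all genes called are given above only for DESeq2, the mouse as a block and the layer 6 marker limit. The other counts may follow a change over all genes. The cause was not tested.

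With the mouse as a block, Cdh10, Cdh18 and Pcdh19 were called and Pcdh20 was not in Synpr-high against remaining cells, Cdh11 was called in Slc30a3 against remaining cells (-0.99), Pcdh8 was called and Pcdh20 was not in RSC against LEC cells, Cdh13 was called within Slc30a3 cells, and the Pcdh17 interaction was not. Sums of RSC Slc30a3 cells came from 6 to 9 cells and the blindly sampled mouse had the lowest counts, which limits sparse genes most.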
